A study of Mus musculus with 8 samples.

Results

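Chromatin remodelling complexes spend ATP to slide, evict or exchange nucleosomes, and so set which stretches of DNA other proteins can reach. Their motors fall into the SWI/SNF, ISWI, CHD and INO80 families, and each motor works with partner subunits that place it on the genome. In the nervous system the SWI/SNF complex, also called BAF, swaps subunits as progenitors become neurons, and human mutations in several of these genes, among them ARID1B, CHD2 and CHD8, cause disorders of brain development. The genes described here are the 43 whose symbol begins with Smarca to Smarce, Chd, Baz1, Baz2, Arid1 to Arid5, Ino80 or Actl6, of 22180 named genes on the array. The choice rests on symbols and used no measured value, and 48 probe sets matched it. It also takes in ARID proteins that are DNA-binding factors rather than remodeller subunits, and 1 transcribed pseudogene, Smarca5-ps.

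The samples were primary neuron cultures from hippocampi of C57BL/6J E18.5 mouse embryos, kept 11 days in vitro with AraC, which kills dividing cells, in the medium. In 4 cultures KCl had been raised to 55 mM for 4 h, which depolarises neurons and opens their calcium channels, and 4 cultures were untreated; no genetic change is named in either group. RNA was measured on Affymetrix whole-transcript arrays, and all values are log2 probe set values. Each array has a mouse number of its own in the labels, but nothing says that the cultures were prepared separately, so the p-values measure the spread between these samples.

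Array medians lay between 4.44 and 4.48, and 5 of 5 activity genes (Fos, Fosb, Junb, Egr4 and Nr4a1) rose after KCl, with list means of 9.60 to 9.78 in KCl arrays and 5.28 to 6.37 in untreated arrays. The neuronal label was borne out by 8 general neuron markers, whose list mean was 10.95 to 11.20 in KCl arrays and 10.89 to 11.30 in untreated arrays. Astrocyte markers were also bright (8.59 to 9.19 in KCl arrays and 8.45 to 9.35 in untreated arrays, with Gfap at 10.76 ± 0.35 and 10.78 ± 0.25 in the same order, SD, n = 4 each). Markers of microglia (4.14 to 4.43 in KCl arrays and 4.30 to 4.38 in untreated arrays) and of fibroblasts (4.29 to 4.54 and 4.19 to 4.57) lay near the array median. List means were 4.76 to 5.14 and 4.80 to 5.04 for the oligodendrocyte lineage, and 4.32 to 4.84 and 4.21 to 4.725 for endothelium, in the same order. Within these 2 lists Olig1 (7.265 and 7.32), Olig2 (6.81 and 6.75) and Kdr (6.76 and 6.71) averaged well above the array medians. Of the 9 marker lists, progenitor and cycling markers were the ones with a call: 1 of 8 measured, Pcna, rose (log2 change 0.81, limma adjusted p = 0.0191). With the replicate number as a block, the progenitor marker Pax6 was also called higher (log2 change 0.92, adjusted p = 0.0461, and 0.545 without the block). In that fit the GABAergic marker Gad2 was called lower (log2 change -0.49, adjusted p = 0.0458, and 0.832 without the block). The GABAergic markers Gad1 and Slc32a1 had log2 changes of 1.08 and -0.09 and no call (adjusted p = 0.0765 and 0.828 with the block). The GABAergic list thus held changes of both signs. The progenitor and cycling list mean was 6.41 to 7.07 in KCl arrays and 5.97 to 6.61 in untreated arrays. The 4 excitatory neuron markers had log2 changes of -0.64 to -0.07, with list means of 9.89 to 10.37 in KCl arrays and 10.28 to 10.81 in untreated arrays and no call. The part of these shifts in the results below was not tested. In bulk RNA, fewer cells of a type and less RNA per cell cannot be told apart.

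After 4 h of KCl, 4 of the 43 genes rose and none fell at a limma adjusted p under 0.05. They were the CHD motors Chd2 and Chd1, the ISWI partner Baz1a and the ARID factor Arid5b. The 4 genes are 9.30% of the members, against 1.34% of all 22180 genes that were called higher and 1.02% that were called lower, together 2.36%. Because 39 of the 43 lay above the median gene in brightness, the share among the 11090 brighter genes, 2.55% called higher, is the closer background. With the replicate number as a block the same 4 were called higher, and 2 members, Chd1l and Smarca5-ps, were called lower, against 2.43% and 2.01% of all genes called higher and lower in that fit. Both lower calls were lost when the block was kept and both arrays numbered 1 were left out. Before adjustment, 8 members were higher and 10 lower at a limma p under 0.05, against 5.69% and 7.34% of all genes. Together these 18 are 41.9% of the members, against 13.0% of all genes and 21.1% of the brighter genes. The median log2 change was -0.03 over the 43 members and -0.01 over all genes, and 18 members had a positive and 25 a negative value, where 52.9% of all genes had a negative one.

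**Figure D1:**
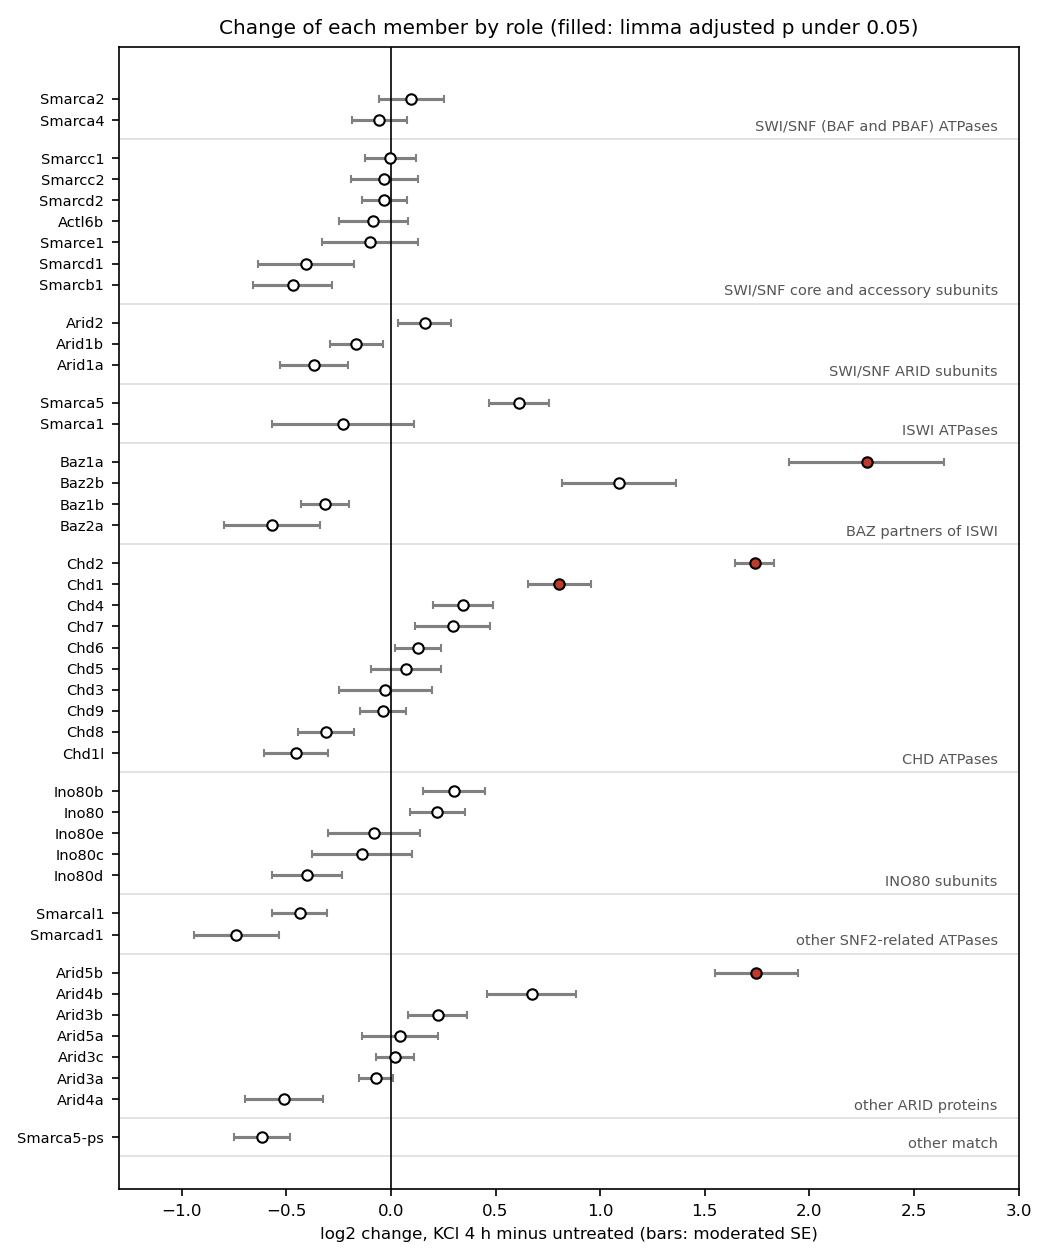
Log2 change (KCl 4 h minus untreated, x axis) of each of the 43 members, grouped by role down the page; bars are moderated standard errors and filled points passed at a limma adjusted p under 0.05. The 4 filled points, Baz1a, Chd2, Chd1 and Arid5b, lie at log2 changes of 0.80 to 2.27, while the SWI/SNF members lie between -0.47 and 0.16.

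Arrays of the 2 groups did not overlap for 8 members. In 7 of them (16.3%, against 3.83% of all genes and 5.80% of brighter genes) every KCl array lay above every untreated array: Chd2, Chd1, Baz1a, Arid5b, Smarca5, Baz2b and Arid4b. In 1, Smarca5-ps (2.33%, against 4.33% of all genes), every KCl array lay below. Promoter sequence is shown for the 4 of these that the RefSeq promoter table holds, since they are the members whose KCl arrays all lay higher. Each is the 250 bases before the annotated start, read 5′ to 3′ on the gene's strand in assembly GRCm38.p6, at chr10:68278727-68278976 (minus strand) for Arid5b, chr2:60125741-60125990 (minus) for Baz2b, chr8:80739460-80739709 (minus) for Smarca5 and chr13:14063534-14063783 (plus) for Arid4b. Capitals mark matches, on either strand, to motifs of factors that depolarisation activates.
Arid5b: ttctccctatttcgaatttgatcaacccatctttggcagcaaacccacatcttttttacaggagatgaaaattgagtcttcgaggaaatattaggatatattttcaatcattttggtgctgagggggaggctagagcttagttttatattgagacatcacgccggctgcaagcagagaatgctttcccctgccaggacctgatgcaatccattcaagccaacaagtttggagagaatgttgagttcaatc
Baz2b: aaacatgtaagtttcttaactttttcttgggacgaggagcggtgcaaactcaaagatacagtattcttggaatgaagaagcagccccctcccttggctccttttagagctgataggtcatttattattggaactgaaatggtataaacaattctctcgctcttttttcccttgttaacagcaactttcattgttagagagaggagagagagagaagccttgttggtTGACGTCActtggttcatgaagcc
Smarca5: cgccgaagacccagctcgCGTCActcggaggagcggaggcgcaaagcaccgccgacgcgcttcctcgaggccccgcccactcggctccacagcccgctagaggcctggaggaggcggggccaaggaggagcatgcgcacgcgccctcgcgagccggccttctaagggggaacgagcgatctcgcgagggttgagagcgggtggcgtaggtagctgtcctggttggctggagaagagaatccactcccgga
Arid4b: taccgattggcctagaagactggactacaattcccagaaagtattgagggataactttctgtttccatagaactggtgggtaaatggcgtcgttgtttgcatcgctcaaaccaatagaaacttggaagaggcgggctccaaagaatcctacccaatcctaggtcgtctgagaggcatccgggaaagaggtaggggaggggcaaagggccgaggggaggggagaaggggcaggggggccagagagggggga

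The motifs searched on both strands were the full CRE (TGACGTCA) bound by CREB, its short form (TGACG, which the full site contains), the AP-1 site (TGANTCA), the NPAS4 site (TCGTG), the E-box (CACGTG), and the MEF2 and SRF CArG motifs. Baz2b held a full CRE with its first base at position -24 from the start, a motif found in 1.55% of all 32851 promoter windows of this length. Smarca5 held the short form at position -232, which 17.8% of all windows have. No searched motif was in the windows of Arid5b and Arid4b. Over the 38 windows of the 31 members in the table, the short form stood in 23.7%, the NPAS4 site in 28.9% (13.3% of all windows), the full CRE, AP-1 site, E-box and CArG motif in 2.63% each (1.55%, 6.75%, 6.02% and 1.47% of all windows in the same order), and MEF2 in none (2.92%). Genes with several windows share sequence, and these shares are a description.

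None of the 12 measured SWI/SNF genes, which build the BAF and PBAF complexes, passed the threshold. The ATPases are Smarca2 and Smarca4, of which a given complex holds 1. Smarca2 averaged 9.20 ± 0.21 in KCl arrays and 9.11 ± 0.26 in untreated arrays (SD, n = 4 each), a log2 change of 0.10 (SE 0.16, limma adjusted p = 0.913). It was higher in 4 of 4 same-numbered pairs, but by 0.03 to 0.19 only, and its change turned to -0.02 without untreated replicate 1. Smarca4, chosen after its values were seen, had 9.09 ± 0.21 in KCl arrays and 9.14 ± 0.15 in untreated arrays.

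All 7 measured core and accessory subunits had negative log2 changes, a sign that 52.9% of all genes had. None passed, and Smarcb1 at -0.47 was the lowest. Smarcc1, Smarcc2 and Smarcd2 had changes of only -0.03 to -0.002. Centring each array on its median moved the median change over the members from -0.03 to 0.002. The sign of changes this small therefore depends on the scaling. Smarcb1, the core subunit that grips the nucleosome, stood at 7.31, 7.43, 7.58 and 7.19 in KCl arrays 1 to 4, against 7.70, 7.89, 8.35 and 7.45 in untreated arrays 1 to 4. It was lower in each same-numbered pair, by 0.25 to 0.77, while the groups overlapped (log2 change -0.47, SE 0.19, adjusted p = 0.331, and 0.0795 with the replicate block). Smarcd1, an adaptor to transcription factors, was also lower in 4 of 4 pairs (log2 change -0.41, SE 0.23, adjusted p = 0.557, and 0.0949 with the block), which 13.2% of all genes were. A second probe set of Smarcd1 had a log2 change of 0.12, but lay close to the array medians (4.66 in KCl arrays and 4.54 in untreated arrays). The scaffold Smarcc1 was at 8.26 ± 0.19 in KCl arrays and 8.26 ± 0.15 in untreated arrays, and its paralog Smarcc2, Smarcd2 and Smarce1 had log2 changes of -0.10 to -0.03.

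Actl6b, the actin-related subunit of the neuronal form of BAF, averaged 9.88 ± 0.11 in KCl arrays and 9.97 ± 0.33 in untreated arrays (SD, n = 4 each, log2 change -0.08, SE 0.16, adjusted p = 0.935). Its progenitor counterpart Actl6a had no probe set of its own: the probe set shared with Mrpl47 stood at 5.67 ± 0.26 in KCl arrays and 5.83 ± 0.38 in untreated arrays. Other subunits that differ between the forms were taken from a partner list. Dpf1, of the neuronal form, had a log2 change of 0.96 (adjusted p = 0.248, and 0.0138 with the block), with 6.24, 6.96, 7.27 and 7.13 in KCl arrays 1 to 4, against 5.01, 6.10, 6.18 and 6.48 in untreated arrays 1 to 4. Dpf3 and Ss18l1, of the same form, had -0.38 and -0.29. Phf10, of the progenitor form, had 0.58 (adjusted p = 0.33, and 0.0268 with the block), beside Dpf2 at -0.50 and Ss18 at 0.15. Both forms held positive and negative values, and the subunits in this paragraph were picked with their values known.

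The ARID subunits that define BAF (Arid1a, Arid1b) and PBAF (Arid2) did not pass either. Arid1a had a log2 change of -0.37 (SE 0.16, adjusted p = 0.392), with KCl arrays at 7.53 to 8.11 and untreated arrays at 7.82 to 8.37. Arid1b, which averaged 8.61 ± 0.19 in KCl arrays and 8.77 ± 0.16 in untreated arrays, had -0.17 (SE 0.13, adjusted p = 0.724). Arid2 had 0.16. Smarcd3 shares its probe set with Chpf2 (log2 change -0.40 for the pair) and cannot be given a value.

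The ISWI motors Smarca5 and Smarca1 space nucleosomes evenly, and Smarca5 drives several complexes that differ in their BAZ partner. Smarca5 stood at 8.37, 8.03, 7.94 and 8.56 in KCl arrays 1 to 4, against 7.52, 7.60, 7.62 and 7.71 in untreated arrays 1 to 4. The groups did not overlap, and the narrowest gap was between KCl replicate 3 and untreated replicate 4. The 1.53-fold difference (log2 change 0.61, SE 0.15) missed the threshold (adjusted p = 0.0753, and 0.0525 with the block). Smarca1 varied more by replicate number than by treatment, with 6.95 to 7.91 in KCl arrays and 6.79 to 8.41 in untreated arrays (log2 change -0.23, SE 0.34, adjusted p = 0.904).

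Smarca5-ps is annotated as a transcribed pseudogene of Smarca5, so probes of the one may read RNA of the other. It lay the other way, at 4.66, 4.79, 4.37 and 4.34 in KCl arrays 1 to 4, against 5.26, 5.28, 5.16 and 4.94 in untreated arrays 1 to 4. Without the block it missed the threshold (KCl to untreated ratio 0.652, log2 change -0.62, SE 0.13, adjusted p = 0.0565), and with it the adjusted p was 0.0242.

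Of the 4 BAZ partners of ISWI, Baz1a rose (25%, against 1.34% of all genes and 2.55% of the brighter genes) and 3 did not pass. Baz1a, also called Acf1, joins Smarca5 in the ACF and CHRAC complexes. It had 5.54, 5.77, 6.93 and 7.19 in KCl arrays 1 to 4, against 4.18, 4.42, 3.94 and 3.80 in untreated arrays 1 to 4. All untreated arrays lay below the array medians, and KCl arrays 3 and 4 lay above KCl arrays 1 and 2. The difference within same-numbered pairs was 1.37 and 1.35 for numbers 1 and 2, and 2.99 and 3.39 for numbers 3 and 4. The log2 change of 2.27 (SE 0.37, adjusted p = 0.0191) was called in 5 of the 8 fits without a single array, and missed without KCl replicate 3 or untreated replicate 3 or 4 (adjusted p up to 0.0648).

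Baz2b is a related bromodomain protein, and its KCl arrays 3 and 4 also lay above KCl arrays 1 and 2. Its KCl arrays 1 to 4 stood at 6.32, 6.37, 7.20 and 7.52 and its untreated arrays 1 to 4 at 5.83, 5.85, 5.50 and 5.89, with pair differences of 0.49, 0.52, 1.70 and 1.64. The 2.13-fold difference missed the threshold (log2 change 1.09, SE 0.27, adjusted p = 0.0921, and 0.0609 with the block). Baz1b, the partner in the WICH complex, and Baz2a, the partner in the NoRC complex that silences ribosomal DNA, had values on the other side of 0, at log2 changes of -0.32 (SE 0.11, adjusted p = 0.261) and -0.57 (SE 0.23, adjusted p = 0.336). For both, 3 of 4 pairs were lower and the pair numbered 1 was slightly higher, by 0.07 and 0.13. Several marker lists also varied by number. GABAergic neuron list means were 5.46, 6.19, 7.06 and 6.52 in KCl arrays 1 to 4 and 5.41, 6.01, 6.62 and 6.51 in untreated arrays 1 to 4. Those of endothelium were 4.74, 4.84, 4.33 and 4.32, and 4.62, 4.725, 4.25 and 4.21, in the same order. Those of astrocytes were 9.19, 8.81, 8.83 and 8.59, and 9.35, 8.95, 8.62 and 8.45. The part of any of these in the spread of Baz1a and Baz2b was not tested.

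**Figure D2:**
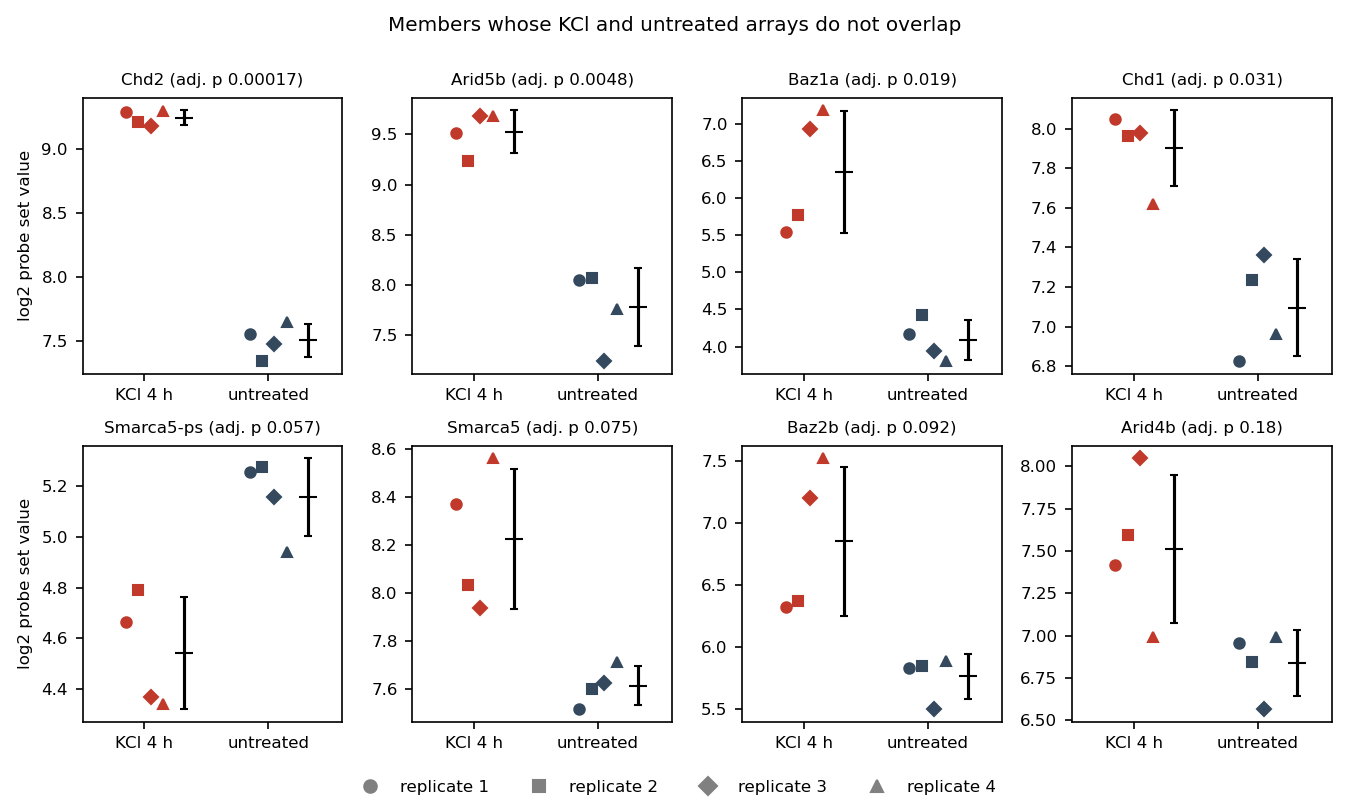
Log2 probe set values of the 8 members whose KCl 4 h arrays (red, left) and untreated arrays (dark, right) do not overlap; symbols give the replicate number, and black dashes with bars are means and SDs of 4 arrays. Chd2 has the smallest SD of the 8 in KCl arrays (0.059) and Smarca5 in untreated arrays (0.081), Baz1a and Baz2b split by replicate number within the KCl arrays, and for Arid4b the lowest KCl array and the highest untreated array almost touch.

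Among the 10 members with a Chd symbol, 2 rose (20%, against 1.34% of all genes and 2.55% of the brighter genes), none fell and 8 did not pass. Chd2 is a motor whose mutations in humans cause a childhood epilepsy. It stood at 9.28, 9.21, 9.17 and 9.30 in KCl arrays 1 to 4, against 7.55, 7.34, 7.47 and 7.65 in untreated arrays 1 to 4. The groups lay far apart relative to their spread, and the pair differences were all alike, at 1.65 to 1.87. Chd2 rose 3.34-fold (log2 change 1.74, SE 0.093, limma adjusted p = 0.000166). It was called in all 20 alternative fits, with log2 changes of 1.69 to 1.79.

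Chd1, the closest relative of Chd2, binds histone H3 methylated at active promoters. Its KCl arrays 1 to 4 had 8.05, 7.96, 7.98 and 7.62, and its untreated arrays 1 to 4 had 6.83, 7.24, 7.36 and 6.96. The groups did not overlap, and the pair numbered 1 differed most, by 1.22 against 0.61 to 0.73 in the others. Chd1 rose 1.75-fold (log2 change 0.80, SE 0.15, adjusted p = 0.0311). The call held in 2 of the 8 fits without a single array (without KCl replicate 4 or untreated replicate 3), with adjusted p up to 0.101 in the others. Without both arrays numbered 1 it was 0.0926, and 0.0247 with all arrays and the replicate block.

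The 8 other members with a Chd symbol had log2 changes of -0.45 to 0.34 and adjusted p of 0.219 or more. Chd4, Chd3 and Chd5 are the alternative motors of the NuRD corepressor complex. Chd4 was higher in 4 of 4 pairs, by 0.20 to 0.48 (log2 change 0.34, adjusted p = 0.347), as 11.0% of all genes were, while Chd3 and Chd5 had -0.03 and 0.07. Chd8 was lower in 4 of 4 pairs (log2 change -0.31, adjusted p = 0.38), and its relatives Chd7, Chd6 and Chd9 had 0.30, 0.13 and -0.04. Chd1l, a motor recruited to damaged DNA by poly-ADP-ribose, had 5.22, 4.69, 4.84 and 4.82 in KCl arrays 1 to 4, against 5.62, 5.05, 5.38 and 5.33 in untreated arrays 1 to 4. Its pairs differed evenly, by -0.54 to -0.36, although the groups overlapped, and the adjusted p was 0.219 without and 0.0491 with the block. These 8 members did not lead their role by p and were picked for mention with their values known. Second probe sets of Chd3, Chd5 and Chd8 had log2 changes of -0.09, 0.02 and 0.05. Those of Chd5 (4.09 in KCl arrays and 4.07 in untreated arrays) and Chd8 (3.77 and 3.72) lay below the array medians.

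The INO80 complex slides nucleosomes and acts on the histone variant H2A.Z. None of its 5 measured members passed. Ino80d was lower in 4 of 4 pairs, by 0.15 to 0.84, with 8.23 ± 0.35 in KCl arrays and 8.63 ± 0.095 in untreated arrays (SD, n = 4 each, log2 change -0.40, SE 0.17, adjusted p = 0.36). Ino80b had a log2 change of 0.30 (SE 0.15, adjusted p = 0.451) and was higher in 3 of 4 pairs. The motor Ino80 itself had 0.22, and Ino80c and Ino80e had -0.14 and -0.08.

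The 2 other SNF2-related motors work in DNA repair and replication, and both had lower values after KCl in each same-numbered pair without passing. Smarcad1, which helps resect broken DNA ends, had 7.78, 8.20, 7.56 and 7.53 in KCl arrays 1 to 4, against 8.12, 8.57, 8.91 and 8.41 in untreated arrays 1 to 4. The groups overlapped through replicate 2 of KCl and replicate 1 of untreated (log2 change -0.74, SE 0.20, adjusted p = 0.123, and 0.0832 with the block). Smarcal1, which rewinds DNA at stalled forks, had a log2 change of -0.44 (SE 0.13, adjusted p = 0.165, and 0.0747 with the block) and was chosen after its values were seen.

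Of the 7 other ARID proteins, 1 rose (14.3%, against 1.34% of all genes and 2.55% of the brighter genes) and 6 did not pass. Arid5b, a DNA-binding partner of the histone demethylase Phf2, stood at 9.51, 9.23, 9.68 and 9.68 in KCl arrays 1 to 4, against 8.05, 8.07, 7.24 and 7.76 in untreated arrays 1 to 4. Untreated replicate 3 was the lowest of its group, and every KCl array lay more than 1 log2 unit above every untreated array. Arid5b rose 3.36-fold (log2 change 1.75, SE 0.20, adjusted p = 0.0048) and was called in all 20 alternative fits, with log2 changes of 1.57 to 1.85. Its relative Arid5a, an RNA-binding protein, was at 4.59 ± 0.26 in KCl arrays and 4.54 ± 0.30 in untreated arrays.

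Arid4a and Arid4b, relatives that sit in the SIN3 corepressor complex, had changes of opposite sign and no call. Arid4b had 7.42, 7.60, 8.05 and 6.99 in KCl arrays 1 to 4, against 6.96, 6.84, 6.57 and 6.99 in untreated arrays 1 to 4. KCl replicate 4 exceeded untreated replicate 4 by 0.00043 log2 units, so the separation of the groups rests on that margin (log2 change 0.67, SE 0.21, adjusted p = 0.185). Arid4a had a log2 change of -0.51 (SE 0.18, adjusted p = 0.26) and was lower in 3 of 4 pairs. Arid3a, Arid3b and Arid3c had -0.07, 0.22 and 0.02, and a second probe set of Arid3b had -0.22. All of these lay near or below the array medians, at means of 3.91 to 4.66 in KCl arrays and 3.98 to 4.44 in untreated arrays.

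Some related members had changes of opposite sign, and 7 pairs of relatives were compared within each array, as the log2 value of one minus that of the other. The size of such a difference depends on the probes, so only its shift between groups is given. The pairs were picked with the values known and were not tested. The first member of each pair had all KCl arrays above all untreated arrays. That choice favoured pair differences whose groups do not overlap. Chd2 and Chd1 both had positive changes. Arid5a, which lay near the array medians, had a log2 change of only 0.04 (SE 0.18), beside 1.75 for Arid5b. Baz1a minus Baz1b shifted by 2.59 log2 units. Relative to the untreated mean, KCl arrays lay at 1.48 to 3.52 and untreated arrays at -0.25 to 0.24. Baz2b minus Baz2a shifted by 1.66, with 0.76 to 2.57 in KCl arrays and -0.33 to 0.62 in untreated arrays. Arid5b minus Arid5a shifted by 1.70, Smarca5 minus Smarca5-ps by 1.23, Arid4b minus Arid4a by 1.18 and Chd2 minus Chd1 by 0.93, each with groups that did not overlap. Smarca5 minus Smarca1 shifted by 0.84 with groups that did.

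**Figure D3:**
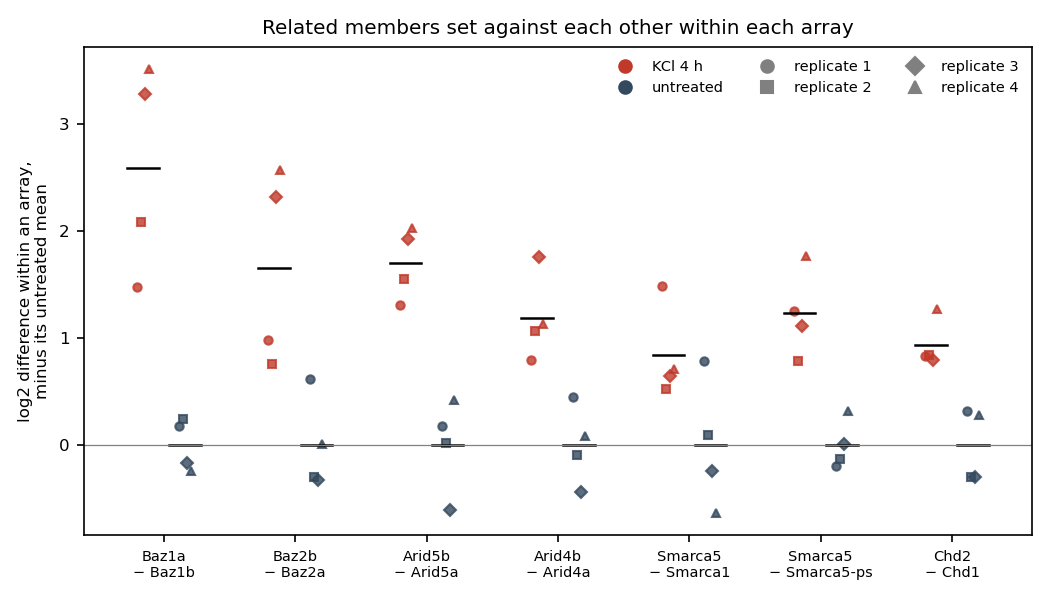
Difference in log2 value between 2 related members within each array (y axis), set to 0 at the mean of the untreated arrays, for 7 pairs; KCl 4 h arrays are red and left, untreated arrays dark and right, symbols give the replicate number and lines the group means. The shift is largest for Baz1a minus Baz1b (2.59), and Smarca5 minus Smarca1 is the pair whose groups overlap.

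Members differed in how even the change was across replicate numbers. The pair differences of Chd2 spanned 0.22 log2 units, those of Chd1l 0.18 and those of Smarca5-ps 0.30. Baz1a had the widest span of the 43, at 2.04, followed by Arid4b at 1.48, Smarce1 at 1.28, Arid5b at 1.27 and Baz2b at 1.21. Of the 43 members, 9 were higher in 4 of 4 pairs (20.9%, against 11.0% of all genes) and 8 were lower in 4 of 4 (18.6%, against 13.2%). The SD within a group had a median over members of 0.222 in KCl arrays and 0.2 in untreated arrays, against 0.183 and 0.203 over all genes in the same order.

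**Figure D4:**
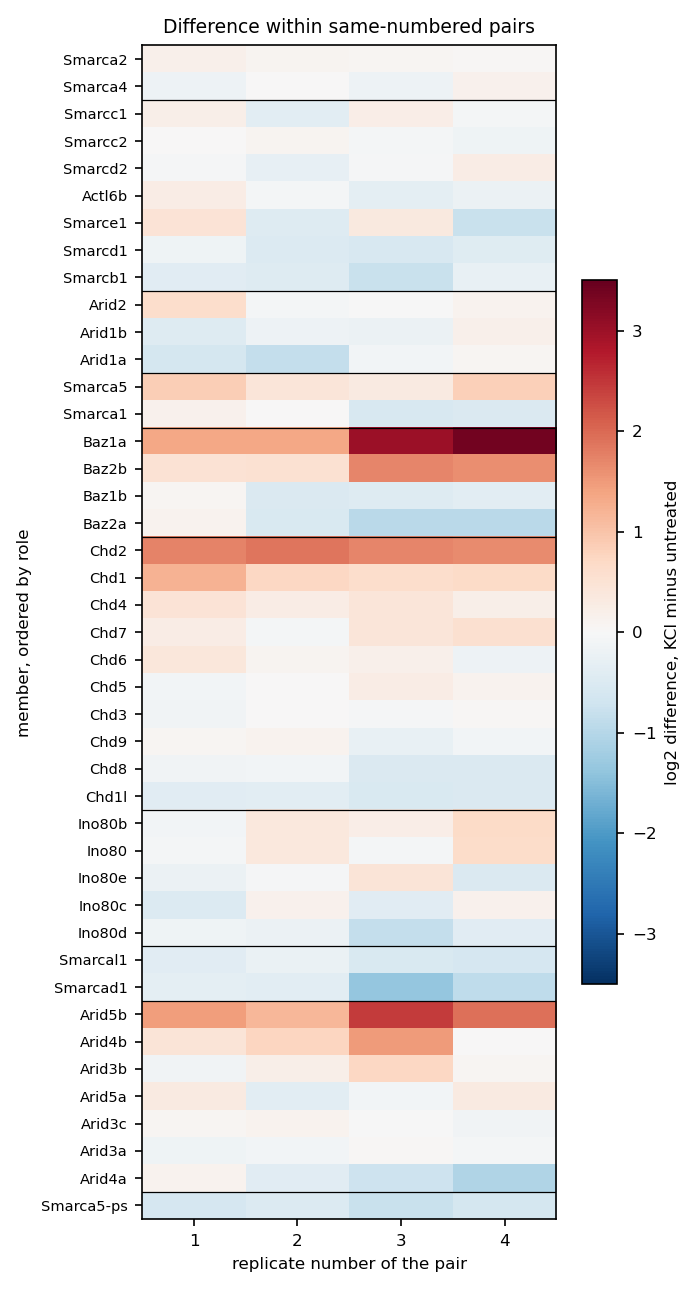
Log2 difference between the KCl 4 h and the untreated array of the same replicate number (columns), for each of the 43 members (rows, ordered by role with lines between roles; red is higher after KCl, blue lower). Chd2 is evenly red across the 4 pairs at 1.65 to 1.87, Baz1a stands at 1.37 and 1.35 in pairs 1 and 2 and at 2.99 and 3.39 in pairs 3 and 4, and most SWI/SNF rows stay pale.

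Subunits that the symbol rule leaves out were taken as 5 lists of partners with 66 measured genes. Of these 2 rose (3.03%, against 1.34% of all genes and 2.55% of the brighter genes), 2 fell (against 1.02% of all genes) and 62 did not pass. The median log2 change of the 66 was -0.05. No gene passed among 16 SWI/SNF partners, where the BAF subunit Bicral had the lowest p (log2 change -0.61, adjusted p = 0.215). None did among 7 ISWI partners, where Bptf, the large subunit of NURF, had the lowest p (log2 change 0.25, adjusted p = 0.518). None did among 14 NuRD and ChAHP partners, where the methyl-DNA reader Mbd2 had the lowest p (log2 change 0.43, adjusted p = 0.163). Mbd2 passed without KCl replicate 2 (log2 change 0.54, adjusted p = 0.0467).

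Of 20 partners in the INO80, SRCAP and TIP60 complexes, 1 rose (5%, against 1.34% of all genes and 2.55% of the brighter genes) and 1 fell (against 1.02% of all genes). Actr8, the actin-related protein of the INO80 DNA-binding module, stood at 6.78, 6.45, 6.78 and 6.64 in KCl arrays 1 to 4, against 7.54, 7.32, 7.77 and 7.62 in untreated arrays 1 to 4. Actr8 fell, with a KCl to untreated ratio of 0.535 (log2 change -0.90, SE 0.13, adjusted p = 0.0115), and was called in 8 of 8 fits without a single array. Ing3, a histone reader of the TIP60 acetyltransferase complex, had 7.04, 7.05, 6.97 and 6.92 in KCl arrays 1 to 4, against 5.85, 6.03, 6.53 and 6.48 in untreated arrays 1 to 4. It rose 1.71-fold (log2 change 0.77, SE 0.16, adjusted p = 0.0473). That call was lost in 8 of 8 fits without a single array, with adjusted p of 0.052 to 0.127.

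Of 11 further SNF2-like motors, 1 rose (9.09%, against 1.34% of all genes and 2.55% of the brighter genes) and 1 fell (against 1.02% of all genes). Ercc6l2, a motor of DNA repair, had 5.03, 4.80, 4.73 and 4.57 in KCl arrays 1 to 4, against 5.76, 5.62, 5.97 and 6.07 in untreated arrays 1 to 4. Ercc6l2 fell, with a ratio of 0.476 (log2 change -1.07, SE 0.14, adjusted p = 0.00751), and was called in all 20 alternative fits. Btaf1, which strips the TATA-binding protein from DNA, had 9.02, 8.39, 9.10 and 9.23 in KCl arrays 1 to 4, against 7.55, 7.30, 8.07 and 7.96 in untreated arrays 1 to 4. It rose 2.32-fold (log2 change 1.22, SE 0.23, adjusted p = 0.0324), a call that held in 1 of 8 fits without a single array (without KCl replicate 2) and in the fit with the replicate block (adjusted p = 0.00443).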

How the data were processed

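The deposited table holds log2 probe set values that the authors made with RMA, a method of background correction, quantile normalization and probe summary. RMA and Partek stand in the submitters' processing notes, without version or settings. RMA compresses differences near background, so changes of dim genes are understated. Scanner files were not analysed here. Of 34472 probe sets, 23521 had 1 gene symbol in the platform annotation, 1814 had several and 9137 were unnamed here. Per gene the probe set of highest mean over the 8 arrays was kept, which gave 22180 genes.

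A linear model with treatment alone was fitted to every gene in R 4.3.3 with limma 3.58.1 and moderated by eBayes. Its two-sided p-values were adjusted over all 22180 genes by Benjamini-Hochberg, and the threshold was 0.05. The 20 alternatives were the replicate block, scaling, probe set, filter and variance choices, and fits without single arrays or without both arrays numbered 1. Same-numbered arrays deviated together from their group means, with correlations across genes of 0.64, 0.23, 0.41 and 0.37. All exceed 0.1, and on that ground the numbers were read as pairs. The highest correlation between a KCl and an untreated array of different numbers was 0.302, above the 0.23 of number 2. Each of the 8 arrays still correlated best with its own number in the other group. No label ties a number to a litter or preparation. In 10 simulations of the same comparison over 22180 genes, with 200 changed genes, 66.9% of log2 changes of 1 and 93.7% of changes of 2 were recovered. Of the calls made there, 6.08% were false. The simulated noise was independent between arrays, without the shared deviation of same-numbered arrays. Named are members past the threshold, the 1 or 2 of smallest p in each role, and partner genes past the threshold or otherwise of smallest p in their list; any further name was picked with its values known. The members and lists were chosen with earlier results of these data known. Promoter sequences are from RefSeq tables (GRCm38.p6). Figures were drawn with matplotlib 3.10.9.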

Additional observations from a re-analysis of the deposited data

Results flagged for a closer look

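Among 100 groups of 4 arrays tested (members and named partners), 4 held an array whose gap to the nearest other exceeded Dixon's critical share of the group's range, which by chance happens in about 1 of 20 groups. KCl replicate 1 was the low array for Arid1b, at 8.32 against 8.69 to 8.71 in the other KCl arrays, and the high one for Baz1b, at 7.38 against 6.96 to 6.997 in the others. Untreated replicate 3 was low for Baz2b, at 5.50 against 5.83 to 5.89 in the other untreated arrays. Untreated replicate 1 was low for Bptf, at 7.73 against 8.02 to 8.06.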

How the results depend on the processing

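Members called higher numbered 4, and 2 in the fit without variance moderation; they ranged from 2 to 4 over the 8 fits without a single array. Chd2 and Arid5b were called in all 20 alternatives and Baz1a in 16, while Chd1 was called in 10. Members called lower numbered 0, and 2 with the replicate block (Chd1l and Smarca5-ps), but 0 with the block and without both arrays numbered 1. Partners called higher numbered 2 (Btaf1 and Ing3), with 4 under the replicate block, which added Dpf1 and Phf10. Only 1, Btaf1, was called with each array centred on its median, with all probe sets tested, and with trended and robust moderation. Without both arrays numbered 1 the count was also 1, but it was Dpf1, and Btaf1 and Ing3 missed. The count was 0 without moderation, 0 at a minimum change of 1.2-fold, and 0 to 2 without single arrays (2, Btaf1 and Mbd2, without KCl replicate 2). Partners called lower numbered 2, with 3 under the block, 2 to 3 without single arrays, and 1 without moderation or at the 1.2-fold minimum. The replicate block changed no other call among members and partners. Among the marker genes, Pax6 and Gad2 gained a call with it. The log2 change of Smarca2, 0.10 with all arrays, ranged from -0.02349 to 0.189 over the fits without a single array and was negative without untreated replicate 1. The cause of these changes was not tested. The share of called genes that were higher was 56.7% over all genes, 69.0% without moderation and 73.3% at the 1.2-fold minimum. Signals near background, as for Smarca5-ps and Chd1l, and 4 arrays a group limit the precision.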

Other observations

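Chaserr, a long noncoding RNA gene that lies next to Chd2 in the RefSeq table and is known in mouse to restrain Chd2, was read by a probe set of its own. It averaged 8.54 ± 0.20 in KCl arrays and 7.71 ± 0.21 in untreated arrays (SD, n = 4 each), and every KCl array lay above every untreated array. Chaserr rose 1.78-fold (log2 change 0.83, SE 0.14, limma adjusted p = 0.0233, and 0.011 with the replicate block), higher in 4 of 4 pairs. The 2 annotated genes overlap and probe positions were not used here, so RNA of one read by probes of the other cannot be told apart. The other 7 neighbours of the 4 members that rose did not pass, with log2 changes of -0.21 to 0.18 and adjusted p of 0.475 or more. These neighbours were chosen after the values of the members were seen.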
